A study of Homo sapiens with 18 samples.

Results

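Box C/D snoRNAs were followed in RNA from extracellular vesicles (EVs) and from the cells that released them. A gene was taken where GENCODE 29 types it as snoRNA, its symbol starts with SNORD, and its summed level reached at least 1 TPM (a share of a library's transcripts, scaled for their length) in at least 3 of 18 libraries. Of 278 such genes in the annotation, 267 were measured, and 9 of them met the level: SNORD17, SNORD96B, SNORD97, SNORD99, SNORD4A, SNORD3C, SNORD3A, SNORD46 and SNORD3B-2. Another 30 were above 0 in 1 or 2 libraries and 228 were listed at 0 in all 18. The members were chosen by their measured TPM over the 6 groups, so the presence of these 9 genes is a description and not a finding.

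The libraries came from HEK293T, an established human embryonic kidney line. Wild-type cells, ATG7-/- cells (clone F2) and ATG12-/- cells (clone D9) were all kept without serum for 24 h, and total RNA was taken from cells and from EVs, in 3 biological replicates of each of the 6 groups. The sample titles call all 18 libraries large RNA, and the titles do not state how short an RNA these libraries could hold. ATG7 and ATG12 belong to the conjugation machinery that attaches LC3 to membrane lipid, and the study's title asks how that machinery loads RNA-binding proteins into EVs. Each knockout is 1 clone, so the effect of a genotype and of a clone cannot be told apart.

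Box C/D snoRNAs are short nucleolar RNAs that base-pair with a target RNA and place a ribose methylation on it, while a few of them, such as U3, are needed for cutting the ribosomal RNA precursor. Most human ones are cut out of introns of other genes, and their ends are protected by a particle of FBL (the methyltransferase), NOP56, NOP58 and SNU13. The names come from the box C and box D motifs near the 2 ends, which the particle recognises.

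Sequences are shown for 6 of the 9 genes, since they let the guides be compared with the U3 RNA and show which of them carry the exact box letters. They are the GENCODE 29 transcripts on GRCh38, 5′ to 3′. Capitals mark the exact letters TGATGA (box C) and CTGA (box D), searched on the strand of the RNA alone. SNORD17 lies at chr20:17962710-17962946 on the minus strand, inside introns of SNX5 and OVOL2. SNORD96B lies at chrX:110224985-110225063 on the minus strand, in an intron of AMMECR1. SNORD97 lies at chr11:10801467-10801608 on the minus strand, within EIF4G2 on the same strand and opposite CTR9. SNORD99 lies at chr1:28578749-28578822 on the minus strand, in an intron of SNHG12. SNORD4A lies at chr17:28722582-28722653 on the plus strand, in an intron of RPL23A. The 217-nt U3 RNA of SNORD3A lies at chr17:19188016-19188232 on the plus strand, and has a promoter of its own.
SNORD17: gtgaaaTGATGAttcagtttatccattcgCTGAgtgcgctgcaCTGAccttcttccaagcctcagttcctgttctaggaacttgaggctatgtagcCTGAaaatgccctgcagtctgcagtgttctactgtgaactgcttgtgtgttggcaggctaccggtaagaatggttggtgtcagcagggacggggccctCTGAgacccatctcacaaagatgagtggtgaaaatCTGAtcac
SNORD96B: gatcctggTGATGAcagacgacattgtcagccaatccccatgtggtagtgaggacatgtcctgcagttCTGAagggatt
SNORD97: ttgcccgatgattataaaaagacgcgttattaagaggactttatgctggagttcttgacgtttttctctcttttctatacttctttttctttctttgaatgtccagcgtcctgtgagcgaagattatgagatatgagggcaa
SNORD99: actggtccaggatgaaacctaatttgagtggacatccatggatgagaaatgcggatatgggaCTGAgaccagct
SNORD4A: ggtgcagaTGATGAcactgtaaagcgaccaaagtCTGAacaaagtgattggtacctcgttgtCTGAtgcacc
SNORD3A: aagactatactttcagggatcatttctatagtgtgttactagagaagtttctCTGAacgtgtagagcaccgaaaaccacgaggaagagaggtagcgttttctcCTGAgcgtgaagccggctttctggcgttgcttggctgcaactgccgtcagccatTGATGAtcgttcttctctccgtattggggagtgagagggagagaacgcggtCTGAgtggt

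TGATGA with a CTGA anywhere after its end, so that the 2 motifs share no letter, was found in 75.7% of the 267 SNORD genes, in 0.69% of 145 SNORA genes (the box H/ACA class) and in 0.816% of 5880 other transcripts of 60 to 150 nt. It was found in 5 of 7 members searched, each with a transcript of at most 300 nt. SNORD97 held neither motif in these exact letters, and SNORD99 held CTGA alone. In SNORD4A and SNORD96B the TGATGA started at base 9. The last CTGA ended 6 and 7 bases before the 3′ end of these RNAs. In U3 the TGATGA stood at base 158, far inside the RNA. A match of letters is a description of the sequence and not a test of binding.

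Libraries were compared as a whole before the members. Genes at or above 1 TPM numbered 13255 to 14716 in an EV library and 18464 to 20509 in a cell library, and the depth in reads is unknown. No pair of libraries was identical. KRT8, VIM and NEFM, known from HEK293T, were above 0 in all 18, whereas PAX2 (mean 0.352 TPM in EVs and 0.951 in cells) and KRT18 (2.41 and 1.35 TPM) were low. Of 4 markers of other cells, HBB and ALB were at 0, COL1A1 was above 0 in all 18 (9.32 and 7.23 TPM) and PTPRC was above 0 in 9 of 9 cell and 2 of 9 EV libraries (1.42 and 0.693 TPM on average). ATG7 was at 11.2 to 15.6 TPM in ATG7-/- EVs and 13.3 to 19.4 TPM in wild-type EVs, and at 8.06 to 12.9 TPM in ATG7-/- cells and 8.14 to 13.1 TPM in wild-type cells. ATG12 was at 0 to 0.858 TPM in ATG12-/- EVs and 0.844 to 22.6 TPM in wild-type EVs, and at 5.18 to 9.18 TPM in ATG12-/- cells and 7.61 to 13.5 TPM in wild-type cells. The levels of both mRNAs overlapped between knockout and wild-type cells, and the kind of edit is not given in the sources used here. Nor is the strand setting behind the table. Reads of a snoRNA or of an mRNA therefore cannot be told apart from reads of a gene on the other strand.

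Few C/D snoRNA genes were above 0 in any 1 library. The number was 1 to 4 in the 9 EV libraries and 3 to 17 in the 9 cell libraries. Wild-type EVs had 4, 4 and 2 such genes, ATG7-/- EVs 3, 1 and 2, and ATG12-/- EVs 3, 3 and 3. Wild-type cells had 4, 12 and 6, ATG7-/- cells 7, 11 and 3, and ATG12-/- cells 7, 17 and 3. Replicate 2 had the most in each of the cell groups. The ranges of EVs and cells overlapped at 3 and 4 genes. Over all transcripts of at most 150 nt, 76 to 105 of 6948 were above 0 in an EV library and 260 to 486 in a cell library. Per 100 such short transcripts there were 0.952 to 4.55 SNORD genes in an EV library (median 3.61) and 0.955 to 3.94 in a cell library (median 1.64). The SNORD genes counted here include longer ones, such as SNORD17 and U3, so this ratio does not compare like lengths. SNORD transcripts of at most 150 nt had 8 values above 0 over the EV libraries and 44 over the cell libraries. Within EVs, the 3 ATG7-/- libraries had the most short transcripts (104 to 105) and 1 to 3 SNORD genes. The part of the number of listed short RNAs in the snoRNA counts was not tested.

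**Figure D1:**
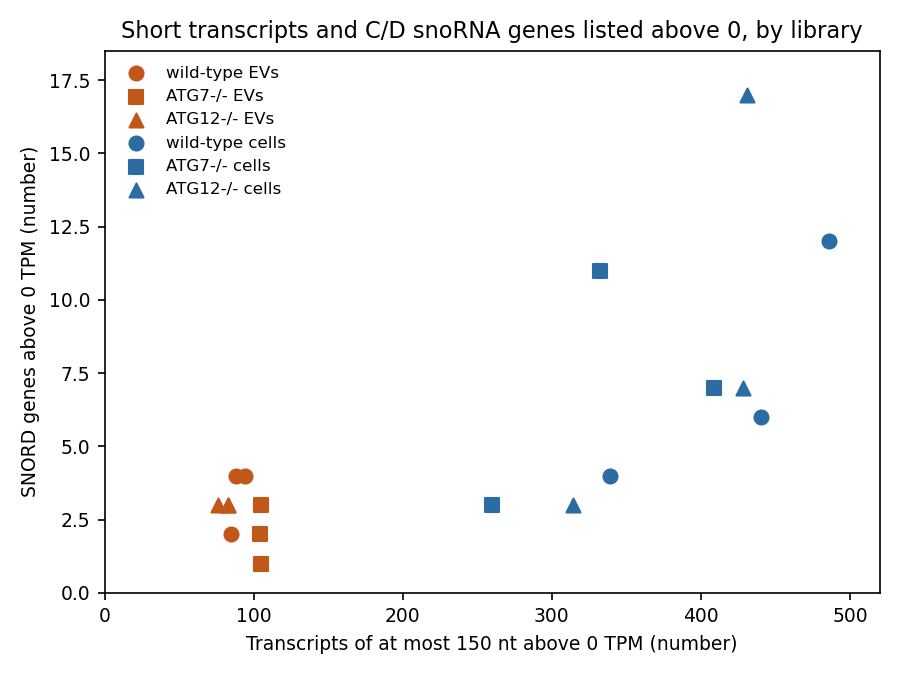
Each point is 1 library; the horizontal axis counts transcripts of at most 150 nt above 0 TPM and the vertical axis counts SNORD genes above 0 TPM. The 9 EV libraries lie at 76 to 105 short transcripts with 1 to 4 SNORD genes, and the 9 cell libraries at 260 to 486 with 3 to 17.

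The summed C/D snoRNA level was carried by 1 or a few genes in each EV library and was spread over more genes in some cell libraries. The SNORD genes together made up 1257, 1089 and 171 TPM in wild-type EVs, 191, 11.4 and 154 TPM in ATG7-/- EVs, and 428, 1094 and 294 TPM in ATG12-/- EVs. In cells they made up 1131, 750 and 466 TPM in wild type, 465, 1162 and 174 TPM in ATG7-/-, and 447, 1098 and 213 TPM in ATG12-/-. The 3 ATG7-/- EV libraries (at most 191 TPM) lay below all ATG12-/- EV, wild-type cell and ATG12-/- cell libraries, and overlapped wild-type EVs and ATG7-/- cells, and all other pairs of groups overlapped. The gene with the highest value held 33.3% to 100% of the sum in an EV library and 12.3% to 64.3% in a cell library. SNORD17 led in 3 EV libraries, SNORD2, SNORD3C, SNORD3B-2, SNORD4A and SNORD55 led in 1 each, and 3 U3 genes tied in the last.

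The values of short RNAs in the table rose in steps. Within a library, the TPM of transcripts of at most 150 nt were whole multiples of 1 smallest step, within a tolerance of 0.02, for 72.9% to 79.4% of the values compared in EVs and 83% to 88.9% in cells. At the 72-nt length of SNORD4A this step was 37.4 to 149 TPM in EV libraries and 68.1 to 190.2 TPM in cell libraries, and at the 237 nt of SNORD17 it was 8.87 to 35.3 and 16.1 to 45.1 TPM. The number of reads behind a step is not recorded in the table. Of 52 non-zero values of SNORD transcripts of at most 150 nt, 43 were whole multiples, with 28 at 1 step, 8 at 2 steps and 7 at 3 or more. For this count the tolerance was 0.02 of the value, and never under 0.02 of a step. The 8 EV values had 2 at 1 step, 1 at 2 steps and 5 at 3 or more, and the 44 cell values had 26, 7 and 2. A minimum of 1 TPM therefore lay below the smallest value that a short snoRNA could show, so for these genes the rule asked only for a value above 0 in 3 libraries.

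**Figure D2:**
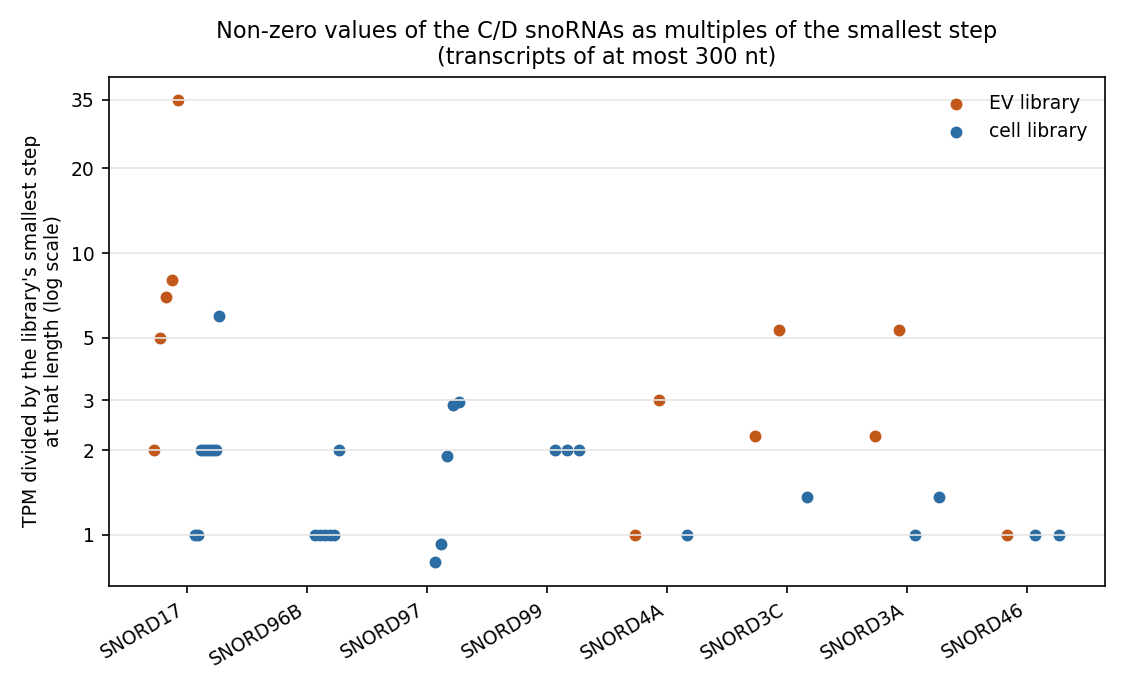
Each point is a non-zero value of a member transcript of at most 300 nt, divided by the smallest step of its library at that length (log axis), with EV libraries in orange and cell libraries in blue. SNORD96B, SNORD99, SNORD4A and SNORD46 sit at 1 to 3 steps, SNORD17 reaches 35 in an EV library, and SNORD97, SNORD3C and SNORD3A hold values off whole steps.

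U3, the RNA that guides the first cuts of the ribosomal RNA precursor, was spread over nearly all libraries as a family. It has 11 genes in the table, of which 5 were above 0 in any library and 3 (SNORD3C, SNORD3A and SNORD3B-2) met the level. The family was above 0 in 9 of 9 EV libraries and 8 of 9 cell libraries. Its summed level was 52.2, 11.2 and 171 TPM in wild-type EVs, 191, 11.4 and 4.46 TPM in ATG7-/- EVs, and 26.9, 17.6 and 9.08 TPM in ATG12-/- EVs. In cells it was 0, 68.6 and 2.8 TPM in wild type, 17.5, 24.0 and 83.3 TPM in ATG7-/-, and 10.6, 46.6 and 10.9 TPM in ATG12-/-. The groups overlapped in every comparison.

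The U3 copies cannot be told apart by most of their sequence. The 217-nt RNAs of SNORD3A and SNORD3C are identical at 216 of 217 bases, and so are those of SNORD3A and SNORD3B-1. Their 217-nt transcripts had the same value in the same library: 77.9 TPM in replicate 3 of wild-type EVs for SNORD3A and SNORD3C, 63.8 TPM in replicate 1 of ATG7-/- EVs for SNORD3A, SNORD3B-1 and SNORD3C, and 31.8 TPM in replicate 2 of wild-type cells for SNORD3A and SNORD3C. Each such level is therefore uncertain between the copies. Much of the rest came from longer annotated transcripts that contain the U3 stretch. The 581-nt transcript of SNORD3C was above 0 in 11 libraries and its 217-nt transcript in 3, and the single listed SNORD3B-2 transcript is 791 nt long.

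SNORD3C (chr17:19189665-19190245, minus strand) had 52.2, 11.2 and 92.7 TPM in wild-type EVs, 63.8, 0 and 4.46 TPM in ATG7-/- EVs, and 0, 17.6 and 0 TPM in ATG12-/- EVs. Wild-type EVs were thus all above 0, and the lowest of them (11.2 TPM) lay within the range of both knockouts. In cells SNORD3C had 0, 36.0 and 0 TPM in wild type, 15.5, 24.0 and 22.5 TPM in ATG7-/-, and 4.67, 15.1 and 0 TPM in ATG12-/-. All 3 ATG7-/- cell libraries held it, against 1 of 3 in wild type. SNORD3A (chr17:19188016-19188714, plus strand) was above 0 in 1 library of each of the 6 groups, at 77.9, 63.8 and 26.9 TPM in wild-type, ATG7-/- and ATG12-/- EVs and at 31.8, 60.8 and 1.29 TPM in the cells. SNORD3B-2 (chr17:19063346-19064136, minus strand) had 11.4 TPM in 1 ATG7-/- EV library and 0 in the other 8 EV libraries. In cells SNORD3B-2 had 0, 0.715 and 2.8 TPM in wild type, 2 TPM in 1 ATG7-/- library, and 5.91, 0 and 10.9 TPM in ATG12-/-.

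Other snoRNAs of ribosomal RNA precursor processing had few values above 0. U8 (SNORD118), needed for the large subunit, was listed at 0 in all 18 libraries. U13 (SNORD13 and SNORD13E), U14 (5 SNORD14 genes) and U22 (SNORD22), which act on the small-subunit RNA, each had 1 value above 0: SNORD13E at 58.1 TPM and SNORD14D at 61.5 TPM in replicate 2 of ATG12-/- cells, and SNORD22 at 68.7 TPM in replicate 1 of ATG7-/- cells. All of these were listed at 0 in the 9 EV libraries. Since U8, which every cell uses, was also at 0 in cells, a listed 0 does not show that an RNA was absent.

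SNORD17, a guide for methylation of large-subunit ribosomal RNA, had the highest mean level of the 9 genes and was the one member above 0 in all 9 cell libraries. It had 164, 492 and 0 TPM in wild-type EVs, 0, 0 and 149 TPM in ATG7-/- EVs, and 0, 70.7 and 178 TPM in ATG12-/- EVs. Cell libraries had 43.2, 34.6 and 47.1 TPM in wild type, 21.7, 56.7 and 90.3 TPM in ATG7-/-, and 37.8, 96.9 and 65.2 TPM in ATG12-/-. Cell libraries thus all held it, at 21.7 to 96.9 TPM, while EVs were either at 0 (4 of 9 libraries) or at 70.7 TPM and more. Only the highest cell values (90.3 and 96.9 TPM) exceeded the lowest EV value above 0. In steps, the EV values were 8 and 35 in wild type, 5 in ATG7-/-, and 2 and 7 in ATG12-/-, against 1 to 6 in cells. The mean was 117 ± 160 TPM in EVs and 54.8 ± 25.3 TPM in cells (SD, n = 9 each). The closest other SNORD gene shares 122 of 237 aligned bases, so no near copy was found. SNX5, whose intron holds SNORD17 and which encodes a sorting nexin, had 35.7 ± 13.8 TPM in EVs and 16.0 ± 4.48 TPM in cells, and OVOL2 was at 0.

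SNORD96B was listed at 0 in all 9 EV libraries. In cells it had 176, 70.6 and 193 TPM in wild type, 88.8, 115.8 and 0 TPM in ATG7-/-, and 77.2, 0 and 0 TPM in ATG12-/-. It was thus in 3, 2 and 1 libraries of 3 in the cell groups, and 5 of the 6 values were 1 step, with the highest at 2 steps. Its closest copy, SNORD96A, is identical at 73 of 79 bases and was at 0 throughout. AMMECR1, the gene around it, had 10.7 ± 15.6 TPM in EVs and 7.72 ± 2.76 TPM in cells.

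SNORD97 guides methylation of a transfer RNA and was also listed at 0 in all 9 EV libraries. In cells it had 0, 142 and 61.8 TPM in wild type, 182, 64.1 and 0 TPM in ATG7-/-, and 0, 86.9 and 0 TPM in ATG12-/-. Each cell group thus held it in 1 or 2 of 3 libraries. Of its length, 85.9% lies in exons of EIF4G2, a translation initiation factor, though no single EIF4G2 exon holds it whole, and all of it lies opposite an exon of 1 CTR9 transcript. Reads of CTR9, EIF4G2 and SNORD97 cannot be told apart from these values. EIF4G2 had 336 ± 209 TPM in EVs and 135 ± 96.9 TPM in cells, and CTR9, part of a transcription elongation complex, had 28.3 ± 14.2 and 155 ± 46.5 TPM. The 5 values of SNORD97 were 0.797 to 2.96 steps. Under the tolerance used to count the SNORD values, only the highest (182 TPM, in ATG7-/- cells) was whole. Those of SNORD96B were all whole.

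SNORD99, SNORD4A and SNORD46 met the level in exactly 3 libraries each. SNORD99, a guide for large-subunit ribosomal RNA, was at 0 in all 9 EV libraries. It had 145, 237 and 135 TPM in replicate 2 of wild-type, ATG7-/- and ATG12-/- cells, which is 2 steps each time. No other replicate number held it. Its host SNHG12 had 5.51 ± 5.08 TPM in EVs and 7.9 ± 2.06 TPM in cells. SNORD4A was the only one of these 3 with more values in EVs, at 280.4, 0 and 107.3 TPM in ATG12-/- EVs (3 and 1 steps), 0 in the other 6 EV libraries and 68.2 TPM (1 step) in 1 ATG12-/- cell library. All of its length lies opposite an exon of AC010761.1, a noncoding gene with 1355 ± 152 TPM in EVs and 1054 ± 117 TPM in cells, while its host RPL23A had 29.5 ± 14.6 and 13.95 ± 3.97 TPM. SNORD46 had 74.0 TPM in 1 wild-type EV library. In cells it had 102 TPM in replicate 2 of ATG7-/- and 58.1 TPM in replicate 2 of ATG12-/-. Each of these values was 1 step.

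**Figure D3:**
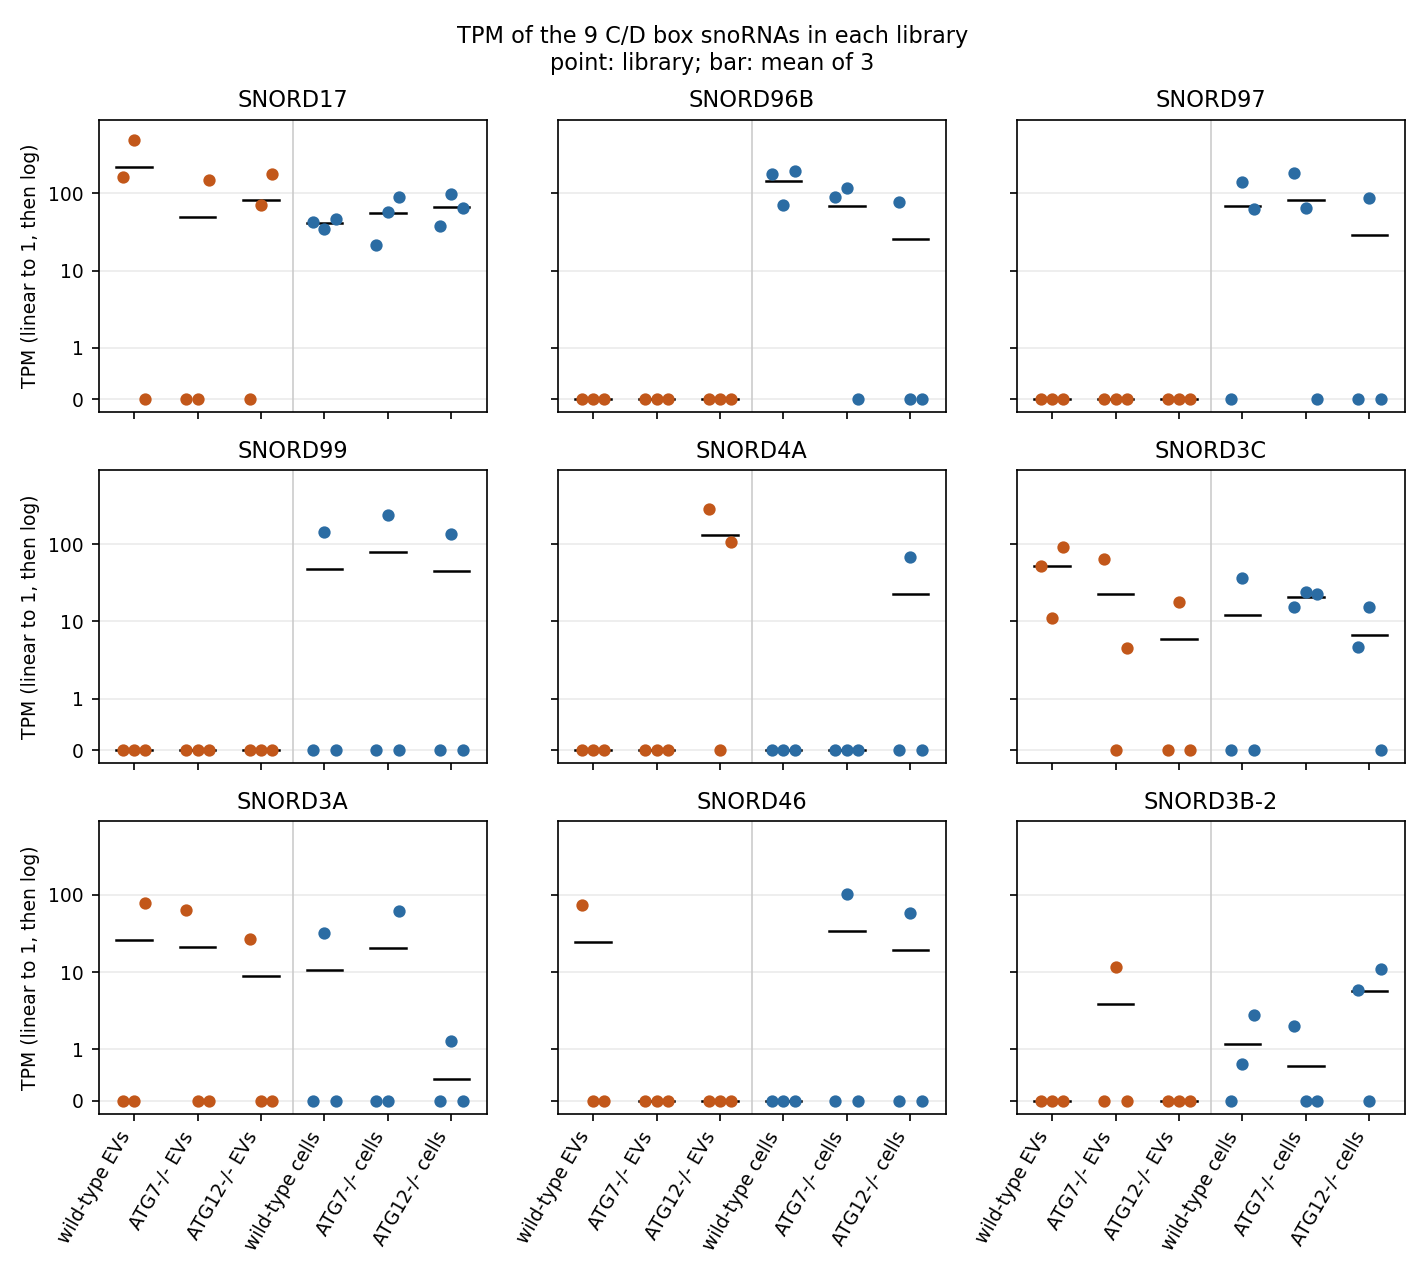
TPM of the 9 C/D snoRNAs in each library (points, EVs in orange and cells in blue) with the mean of 3 (bars), on an axis that is linear to 1 TPM and logarithmic above it. SNORD17 is above 0 in 9 of 9 cell and 5 of 9 EV libraries, and SNORD96B, SNORD97 and SNORD99 are at 0 in all 9 EV libraries.

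Just outside the rule stood 7 genes above 0 in 2 libraries, against the 3 members in exactly 3 libraries. They were SNORD55, SNORD5, SNORD24, SNORD32B, SNORD36C, SNORD91B and SNORD3B-1. Single values outside the rule reached above the highest member value of 492 TPM. SNORD55 had 1006 TPM (7 steps) in replicate 2 of ATG12-/- EVs and 115.2 TPM (1 step) in 1 ATG7-/- cell library. SNORD2 had 967 TPM (11 steps) in replicate 1 of wild-type EVs and was at 0 in the other 17 libraries. SNORD5 had 544 TPM (3 steps) in replicate 1 of wild-type cells and 134 TPM in 1 ATG12-/- cell library, and SNORD38A had 368 TPM (2 steps) in that same wild-type library alone. SNORD36A at 295 TPM and SNORD66 at 291 TPM were both seen in replicate 2 of wild-type EVs alone, at 5 steps each. These 6 genes were picked after their values were seen. The order of the genes by highest value was therefore not the order by number of libraries.

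The large imprinted clusters were listed at 0 with 1 exception. SNORD115 and SNORD116, brain-expressed repeats of the Prader-Willi region, had 42 and 27 genes in the table, and SNORD113 and SNORD114, of the DLK1-DIO3 region, had 9 and 30. Of the 112 genes of these and the smaller imprinted families, 1 was above 0. That gene was SNORD115-47, at 85.8 TPM in replicate 1 of ATG7-/- cells, which is 1 step.

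The 9 members had a higher median length than the other C/D snoRNA genes, but in the median the genes above 0 in 1 or 2 libraries did not exceed those at 0. By the longest transcript of each gene, the median was 142 nt for the 9 members, 78.5 nt for the 30 genes above 0 in 1 or 2 libraries and 81 nt for the 228 at 0. Of the 9 members, 3 were under 100 nt, and the U3 genes count here with transcripts longer than the U3 RNA. Of 12 SNORD genes with a transcript of at least 200 nt, 6 were above 0 in some library and 4 met the level, against 15 and 3 of 96 genes of 70 to 79 nt, 7 and 0 of 72 genes of 80 to 89 nt, and 2 and 1 of 47 genes of 90 nt to under 110 nt. For the 14 genes of 110 to 199 nt these numbers were 6 and 1. Of 26 genes under 70 nt, 3 were above 0 and 0 met the level. Below 110 nt the share of genes above 0 was thus highest at 70 to 79 nt and was lower in the longer genes. The box H/ACA class, whose genes had a median length of 134 nt, had 56 of 145 genes (38.6%) above 0 and 16 that met the same level, against 39 of 267 (14.6%) and 9 in the C/D class. Length differs between the 2 classes, and its part in their difference was not tested.

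**Figure D4:**
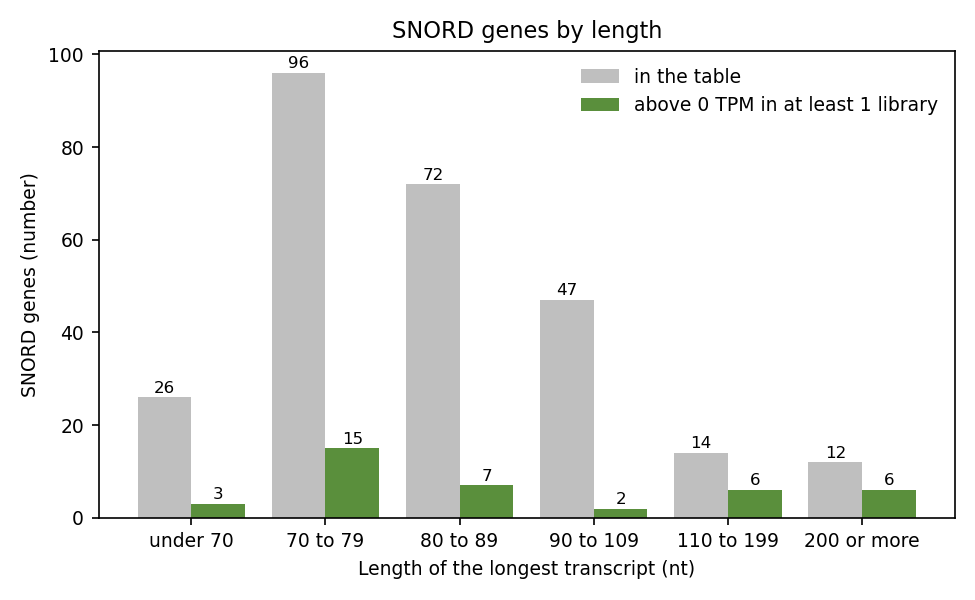
Number of SNORD genes in the table (grey) and above 0 TPM in at least 1 of 18 libraries (green), by length of the longest transcript in nt. Of the 12 genes of 200 nt or more, 6 are above 0, as are 15 of the 96 genes of 70 to 79 nt and 7 of the 72 genes of 80 to 89 nt.

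Between EVs and cells, limma called 2 of 9 members lower in EVs as the mean of the 3 genotypes, in a direction that their choice had fixed. These were SNORD96B and SNORD97, and the other 7 genes did not pass the test. The comparison used limma on log2(TPM + 1) with Benjamini-Hochberg adjustment over 24647 genes, of which 44.2% were called in either direction, 7.66% higher and 36.5% lower in EVs. The median log2 fold change of all genes tested was -0.62, and that of the 9 members was -0.84. SNORD96B had a mean of 0 TPM in EVs and 80.2 ± 73.0 TPM in cells (SD, n = 9 each), was above 0 in 6 of 9 cell libraries, and had an adjusted p of 0.00129 (limma). SNORD97 had 0 and 59.7 ± 67.8 TPM, was above 0 in 5 of 9 cell libraries, and had an adjusted p of 0.0182 (limma). Both met the level through cell libraries alone, so a difference in this direction was built into their choice, and no fold is given against a group at 0. EV libraries also listed fewer transcripts of at most 150 nt above 0 (76 to 105, against 260 to 486 in cells), and the part of this was not tested. SNORD99, at 0 in EVs and in 3 of 9 cell libraries, had an adjusted p of 0.129 (limma). TPM from bulk RNA are shares, so fewer vesicles or cells that hold an RNA and less of it in each cannot be told apart.

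The 6 genes with values in both EVs and cells all had wide intervals. SNORD17 had a log2 fold change of -1.77 (95% interval -4.50 to 0.97, adjusted p = 0.278 with limma), although its mean TPM was higher in EVs, since 4 EV libraries were at 0. SNORD4A had 0.95 (-1.11 to 3.01), SNORD3A 0.45 (-2.25 to 3.16) and SNORD3C 0.22 (-1.85 to 2.28). SNORD46 had -0.74 (-3.04 to 1.57) and SNORD3B-2 -0.84 (-2.03 to 0.35). The adjusted p of these 5 was 0.232 to 0.873 (limma). SNORD3B-2 passed once replicate 2 of ATG7-/- EVs, its only EV value above 0, was left out (-1.24, adjusted p = 0.0435). The sign of SNORD3C and SNORD3A turned when single libraries were left out, among them replicate 1 of ATG7-/- EVs (-0.30 and -0.20).

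**Figure D5:**
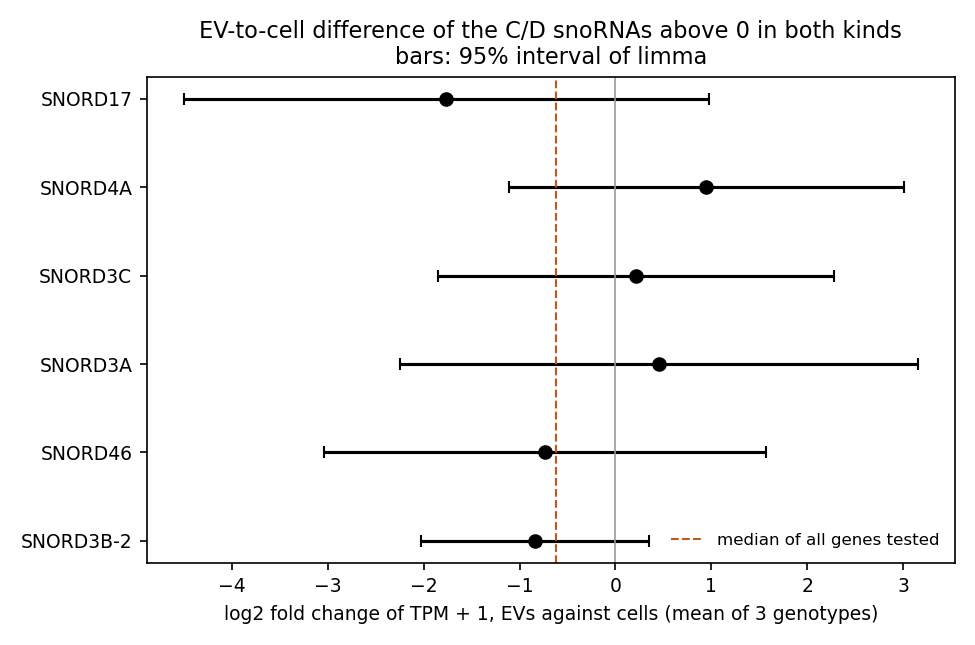
Log2 fold change of TPM + 1 in EVs against cells (mean of the 3 genotypes, points) with limma's 95% interval (bars) for the 6 C/D snoRNAs above 0 in both. All 6 intervals span 0, and the dashed line marks the median of all genes tested, -0.62.

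Within single genotypes, 1 of 9 members was called lower in wild-type EVs than in wild-type cells, where 24.6% of all genes were called and 20.6% were called lower. It was SNORD96B (0, 0 and 0 TPM against 176, 70.6 and 193 TPM, adjusted p = 0.0053 with limma), which met the level through cell libraries alone, so that this direction too was built into its choice. Leaving out replicate 1 or replicate 2 of wild-type cells raised that count to 2. In ATG7-/- and in ATG12-/-, limma called 0 of 9 members, where 11.4% and 11.2% of all genes were called, with 2 and 1 members at an unadjusted p under 0.05. Leaving out replicate 3 of ATG7-/- cells gave 2 calls in ATG7-/-, and leaving out replicate 2 of ATG12-/- EVs gave 1 in ATG12-/-. SNORD96B had adjusted p = 0.0868 in ATG7-/- and 0.431 in ATG12-/- (limma).

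The EV-to-cell difference was itself not called different between a knockout and wild type for any member. With limma, 0 of 9 were called in ATG7-/- and 0 of 9 in ATG12-/-, where 0.276% and 0.272% of all genes were called, and 0 and 1 members had an unadjusted p under 0.05. That 1 was SNORD96B in ATG12-/- (adjusted p = 0.463), whose EV values were 0 in both genotypes, so that the term held only the cell values. For SNORD3C the difference of differences was -5.04 log2 units in ATG7-/- (95% interval -10.10 to 0.03, adjusted p = 0.562) and -4.07 in ATG12-/- (-9.13 to 0.99, adjusted p = 0.605), both from limma. The 2 knockouts were set against the same wild-type libraries, and so are not independent.

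Against wild-type EVs, no member was called in either knockout's EVs. Only SNORD17, SNORD3C and SNORD3A could be tested there, and limma called 0 of 3 in ATG7-/- and 0 of 3 in ATG12-/-, where 0.141% and 0.105% of 17076 genes were called, with 0 and 1 members at an unadjusted p under 0.05. SNORD3C had a mean of 52.0 ± 40.7 TPM in wild-type, 22.7 ± 35.6 in ATG7-/- and 5.86 ± 10.2 TPM in ATG12-/- EVs (SD, n = 3 each). Its log2 fold change was -2.41 (SE 1.64, adjusted p = 0.798 with limma) in ATG7-/- and -3.82 (SE 1.64, adjusted p = 0.619) in ATG12-/-. SNORD17 had means of 219 ± 250.3, 49.7 ± 86.1 and 82.9 ± 89.6 TPM, with intervals of -9.30 to 3.36 in ATG7-/- and -7.19 to 5.48 in ATG12-/- on the log2 scale. SNORD4A was not tested in EVs because only 2 EV libraries held it, both ATG12-/-.

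Against wild-type cells, limma called 0 of 7 members in ATG7-/- cells and 0 of 7 in ATG12-/- cells, where 0.2% and 0.134% of 22471 genes were called, with 0 members at an unadjusted p under 0.05 in each. SNORD17 was the most evenly measured of them, with means of 41.6 ± 6.43 TPM in wild-type, 56.2 ± 34.3 in ATG7-/- and 66.6 ± 29.6 TPM in ATG12-/- cells. Its log2 fold change was 0.29 (95% interval -0.89 to 1.47, adjusted p = 0.826 with limma) in ATG7-/- and 0.61 (-0.58 to 1.79, adjusted p = 0.616) in ATG12-/-. SNORD96B had 147 ± 66.3, 68.2 ± 60.6 and 25.7 ± 44.6 TPM, with a log2 fold change of -2.56 (-7.56 to 2.44, adjusted p = 0.628) and -4.94 (-9.94 to 0.06, adjusted p = 0.339). For each of these genes the knockout and wild-type intervals left room for changes in both directions.

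The mRNAs of proteins that form, assemble or trim the C/D particle were mostly above 0 in all 18 libraries, unlike the snoRNAs. With the strand setting unknown, these levels and those of the host genes below may include reads of genes on the other strand. Of 24 genes of the pathway, 23 were tested between EVs and cells (limma, mean of the 3 genotypes), and 6 were higher and 1 lower in EVs, where 7.66% and 36.5% of all genes were called higher and lower. Of the 5 HEK293T markers, 3 (KRT8, NEFM and VIM) were also called higher in EVs. Of the 4 core proteins 3 were higher: the methyltransferase FBL (310.3 ± 61.1 TPM in EVs and 63.2 ± 33.1 TPM in cells, log2 fold change 2.11, SE 0.21, adjusted p = 2.56e-06), SNU13, which binds the box C/D fold first (92.0 ± 27.9 and 27.3 ± 9.98 TPM, 1.45, SE 0.19), and the scaffold protein NOP56 (41.8 ± 14.5 and 15.6 ± 6.21 TPM, 1.10, SE 0.24). NOP58, its partner, had 3.7 ± 4.34 and 1.89 ± 1.54 TPM and was not called. Of the 4 proteins particular to the U3 particle, MPHOSPH10, IMP3 and IMP4 were higher, at 17.1 against 3.99, 28.1 against 14.6 and 46.7 against 10.6 TPM on average, and RRP9 was not called (4.02 and 2.65 TPM). The 7 assembly factors tested had 1 call, the zinc-finger protein ZNHIT3, which was lower in EVs (24.1 ± 12.4 and 36.8 ± 8.63 TPM, -1.08, SE 0.30, adjusted p = 0.00985). The 3 genes of cap formation and transport and the 5 of trimming and decay had no call. Between a knockout and wild type, limma called 0 of the 22 pathway genes tested in each of the 4 comparisons (against 0.105% to 0.2% of all genes), with 2, 2, 1 and 5 at an unadjusted p under 0.05 in ATG7-/- EVs, ATG12-/- EVs, ATG7-/- cells and ATG12-/- cells.

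Of 8 genes that surround or face a member, 7 were tested between EVs and cells, and 2 were higher and 2 lower in EVs, against 7.66% and 36.5% of all genes. EIF4G2 (log2 fold change 1.12, SE 0.36) and SNX5 (0.78, SE 0.25) were higher. SNHG12 (-1.14, SE 0.41) and CTR9 (-2.85, SE 0.32) were lower. RPL23A (0.64, adjusted p = 0.0797), AMMECR1 (-0.77, adjusted p = 0.268) and AC010761.1 (0.07, adjusted p = 0.534) were not called by limma. Of the 2 members called lower in EVs, SNORD96B had a host that was not called, and SNORD97 had a host called higher and a gene on the opposite strand called lower.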

How the data were processed

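Total-RNA libraries, titled large RNA, were sequenced as single-end reads of 50 bases after 22 cycles of amplification with a stranded kit, per the labels' protocols. The authors deposited 1 table of TPM for 203027 transcripts in 18 libraries, and Salmon 0.14 and DESeq2 stand in the submitters' processing notes without a stated role. Build, annotation and strand setting were not given in the sources used here, and TPM hold no depth.

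Transcripts were matched to GENCODE 29 (GRCh38, which gives the coordinates here) and summed to 57865 genes, leaving 86 unmatched that held at most 0.038% of a library. The other 11 SNORD genes of the annotation were not analysed here. Median-of-ratios scaling was applied. Genes at or above 1 TPM in 3 or more of the libraries of a fit entered limma 3.58.1 (R 4.3.3) as log2(TPM + 1) (trend, two-sided, Benjamini-Hochberg over all genes tested, threshold 0.05). This scale understates changes of genes near or below 1 TPM. For a gene at 0 in some libraries, the fold depends on the value added to TPM (the pseudocount). SNORD17 had a log2 fold change between EVs and cells of -3.22 with a pseudocount of 0.1, -1.77 with 1 and 0.12 with 100. EVs against cells and the differences between genotypes used all 18 libraries, and knockouts against wild type used the 9 EV or the 9 cell libraries. The smallest step of a library was sought in transcripts of at most 150 nt, up to 20 steps, with a tolerance of 0.02 and an assumed fragment length of 250 ± 25 nt. Fits were tested on simulated data, with normal noise and with changes placed only in genes above a minimum mean level. Values in steps were not simulated, so the rates below do not carry over to short snoRNAs at 0 in many libraries. At log2 changes of 2 and 4, 63 and 89 of 100 changed genes were recovered between EVs and cells (25672 genes, 5 false calls), 11 and 43 in ATG7-/- EVs (19425 genes, 3 false calls) and 39 and 83 in ATG7-/- cells (23573 genes, 17 false calls).

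The genes named are the members, ordered by role, the families of U3, U8, U13, U14, U22 and the imprinted clusters, and the host, facing and pathway genes, of which some results are not reported here. Members and lists were chosen with earlier results of these data known. Alternatives covered the pseudocount, the scaling, the filter, sample weights, the replicate number and each library left out.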

Additional observations from a re-analysis of the deposited data

How the results depend on the processing

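The counts of C/D snoRNAs called in the 10 comparisons were the same under every alternative that kept all libraries. These were pseudocounts of 0.1, 5 and 100 (the last chosen after seeing the data), 3 other scalings, no filter, a filter of 5 TPM, sample weights without a trend, and the replicate number as a block. With the replicate block limma called 2 members between EVs and cells, 1 in wild type and 0 in the other 8 comparisons. Same-numbered libraries had correlated deviations over all genes of -0.0336 to 0.0471, 0 of 27 pairs over 0.1. A low correlation over all genes cannot exclude that libraries of 1 number shared a preparation. In cells, replicate 2 had the most SNORD genes above 0 in every genotype (12, 11 and 17). With 1 library left out, the count was 2 to 3 for the mean of the genotypes, 1 to 2 in wild type, 0 to 2 in ATG7-/-, 0 to 1 in ATG12-/- and 0 in the other 6. SNORD96B and SNORD97 were called between EVs and cells in all 28 settings, with adjusted p (limma) of 7.06e-05 to 0.0074 and 0.00352 to 0.0396. Both entered through cell libraries alone, so this repeats their choice and is no sign of stability. Values turned sign for 3 genes that were not called. SNORD17 had 0.12 with the pseudocount of 100, and SNORD3C -0.061 with sample weights. With 1 library left out, SNORD3A had -0.22, -0.20 and -0.07 (replicate 3 of wild-type EVs, replicate 1 of ATG7-/- EVs, replicate 1 of ATG12-/- EVs). SNORD3C had -0.30 and -0.23 (replicate 1 of ATG7-/- EVs, replicate 2 of ATG12-/- EVs), -0.10 and -0.10 (replicates 1 and 3 of wild-type cells) and -0.15 (replicate 3 of ATG12-/- cells). Their highest values with 1 library left out were 1.13 for SNORD3A (replicate 3 of ATG7-/- cells) and 0.83 for SNORD3C (replicate 2 of wild-type cells). The cause was not tested. Depth is unknown, and values of 1 or 2 steps limit what can be seen in a short snoRNA.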
